A study of Mus musculus with 6 samples.

Results

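The 9 genes described here are the SOX transcription factors Sox2, Sox4, Sox7, Sox8, Sox9, Sox10, Sox11, Sox17 and Sox18. They were taken by gene symbol from the 32285 genes of the count matrices of adult mouse brain cells, and all 9 were found, beside 11 other SOX genes. Single cells were sorted from the cortex and the subventricular zone, a stem cell niche beside the lateral ventricle, of mice 8 to 12 weeks old. Per the labels, the gates were CD31+Glast-CD45- for endothelial cells and CD31-Glast+CD45- for neural stem and progenitor cells. The 6 libraries form 3 groups of 2. One group is labelled Cx43ECiKO (ECiKO here; its titles name Vecad), one Cx43GlastiKO (GlastiKO; titles name Glast), and the control group has the genotype Cx43flox/flox, the floxed allele of Gja1, the gene of connexin 43. The labels give neither the driver lines, the treatment that starts the deletion, nor the deleted part of Gja1, and do not say how many mice or which sorted fraction went into each library. They call the libraries of a group biological replicates; where these did not come from separate mice, p-values measure technical spread only.

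SOX proteins bind DNA in the minor groove through a conserved high mobility group (HMG) box and fall into subgroups by sequence. SoxF proteins (Sox7, Sox17, Sox18) act in vessel formation and arterial identity, and the SoxB1 protein Sox2 maintains neural stem cells. Of the SoxE proteins, Sox9 drives astroglial fate, Sox10 drives oligodendrocyte differentiation and myelin genes, and Sox8 overlaps with both, while the SoxC proteins Sox4 and Sox11 act in new neurons.

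A stretch near the start of each HMG box is shown because the box is what the 9 genes share and what divides them into subgroups. Each line gives 26 codons, 78 bases, from the coding strand, read from the GENCODE M21 transcripts on GRCm38 (mm10). Each stretch begins at the codon before the shared peptide motif PMNAFMVW. Capitals mark bases that differ from Sox2.
Sox2: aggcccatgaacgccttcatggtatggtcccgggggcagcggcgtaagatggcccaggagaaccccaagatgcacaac
Sox4: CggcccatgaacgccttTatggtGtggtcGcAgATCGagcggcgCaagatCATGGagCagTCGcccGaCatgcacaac
Sox11: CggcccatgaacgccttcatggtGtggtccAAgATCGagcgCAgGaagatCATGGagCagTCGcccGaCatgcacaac
Sox7: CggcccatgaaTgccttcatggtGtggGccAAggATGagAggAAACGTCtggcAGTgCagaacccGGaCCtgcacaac
Sox17: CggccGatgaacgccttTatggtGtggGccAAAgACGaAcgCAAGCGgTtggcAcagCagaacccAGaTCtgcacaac
Sox18: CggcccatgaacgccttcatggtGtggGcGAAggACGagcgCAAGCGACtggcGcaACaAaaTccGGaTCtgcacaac
Sox8: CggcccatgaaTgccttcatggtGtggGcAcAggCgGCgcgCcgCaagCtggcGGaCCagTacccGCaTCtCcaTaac
Sox9: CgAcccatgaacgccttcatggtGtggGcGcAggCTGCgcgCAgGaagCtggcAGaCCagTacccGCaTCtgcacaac
Sox10: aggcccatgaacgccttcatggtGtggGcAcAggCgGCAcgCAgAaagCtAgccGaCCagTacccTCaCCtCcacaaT

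The 8 other genes differed from Sox2 at 21 bases (Sox4) to 26 bases (Sox18) of this stretch. Over 219 bases from the same starting codon (73 codons), the 7 pairs within a subgroup shared 77.6 to 90.4% of bases (median 82.6%). The 29 pairs from different subgroups shared 64.8 to 77.2% (median 68.9%). Sox4 and Sox11 were the closest pair (90.4%), followed by Sox8 and Sox9 (85.8%). Sox17 and Sox18 shared 82.6% and Sox7 and Sox18 77.6%, just above the most alike pair across subgroups, Sox7 and Sox9 (77.2%). The stretches lie in exon 1 of each gene except Sox10 (exon 2) and Sox17 (exon 4).

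The libraries held 7433 cell barcodes and 38232717 UMIs (unique molecular identifiers, 1 per captured RNA molecule). Of 6269 cells used, 6070 (96.8%) could be assigned by marker genes, none of them a SOX gene, to a class. Class names rest on RNA markers alone and stand for endothelial-like, astroglial-like and similar cells. The 3 libraries numbered 1 were 90.6 to 94.7% endothelial. Those numbered 2 held 0.839 to 5.39% endothelial cells and 47.6 to 81.2% oligodendrocytes, a type that neither sort gate names, so group differences in glia rest on 1 library per group. Median depth ranged from 786 UMIs per cell in the library labelled ECiKO replicate 2 to 10697 in that labelled GlastiKO replicate 2, and 5 of 15 library pairs shared 1 barcode. In all, 29852 UMIs (0.0781%) came from the 9 genes, with Sox10 (7845) at the upper and Sox7 (441) at the lower end.

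The targeted gene goes against the labels. Levels are given in CPM, counts scaled to all UMIs of that class in a library. Endothelial Gja1 levels were 238 and 209 CPM under the label ECiKO and 144 and 132 CPM under GlastiKO, against 89.4 and 110 CPM in control. It was higher in both libraries labelled ECiKO than in either control (log2 fold change 1.30 ± 0.31 (SE), adjusted p = 0.0166, n = 2 each, edgeR quasi-likelihood test with Benjamini-Hochberg adjustment). Astroglial Gja1 levels of replicate 2 were 2402 CPM under the label ECiKO, 2423 CPM under GlastiKO and 2501 CPM in control. The deleted part is not given, so whether the 3′ tags of Gja1 lie outside it was not checked. The groups are therefore named by label throughout, and no difference between them can be read as an effect of a shown loss of Gja1.

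**Figure D1:**
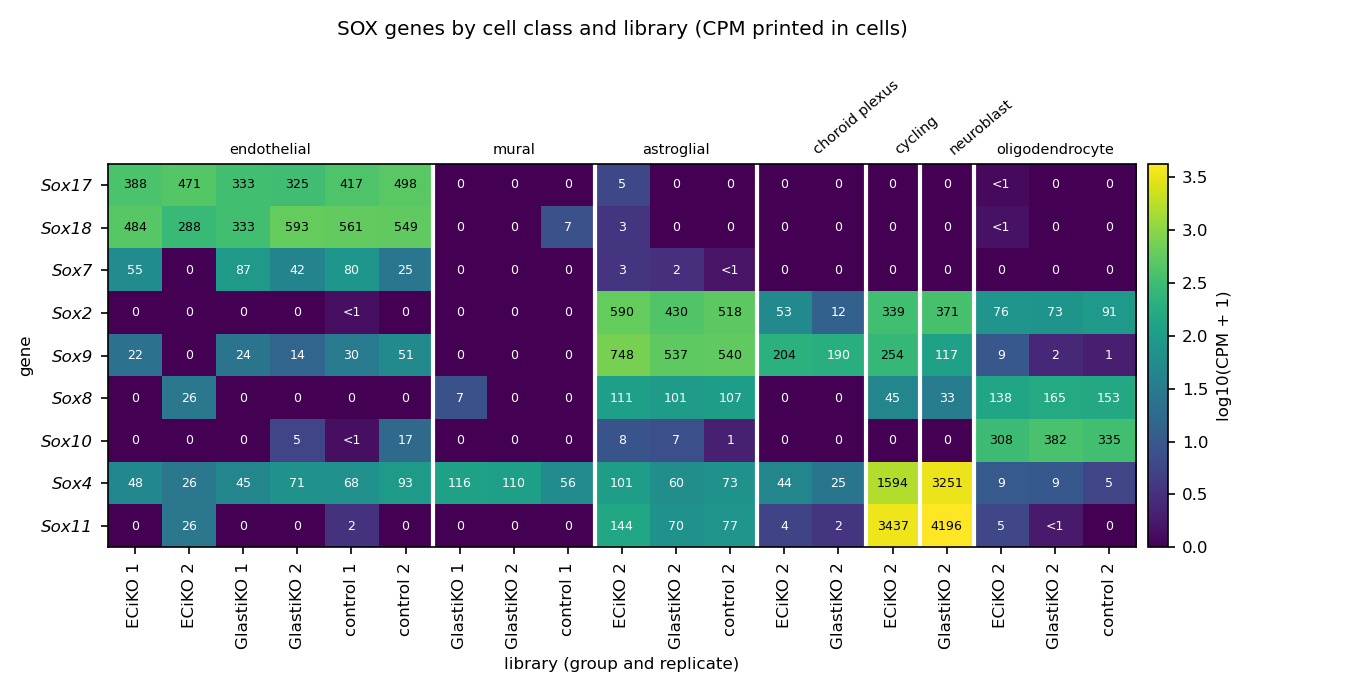
Level of each SOX gene (rows) in each library and cell class with at least 20 cells (columns); colour is log10(CPM + 1) and the printed number is CPM. Sox17 and Sox18 are bright in the 6 endothelial columns, Sox2 and Sox9 in the astroglial ones, Sox10 in the oligodendrocyte ones, and Sox4 and Sox11 in the cycling and neuroblast columns.

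Sox17, a SoxF factor of arterial endothelium (ENSMUSG00000025902, HMG box stretch at chr1:4493122-4493199, minus strand), was high in endothelial cells of all 6 libraries. Its endothelial level was 388 and 471 CPM under the label ECiKO, 333 and 325 CPM under GlastiKO and 417 and 498 CPM in control. Outside this class 3 UMIs were counted in the sums of at least 20 cells, 2 of them in the 165 astroglial cells of the library labelled ECiKO replicate 2 and 1 in its oligodendrocytes. Sums of at least 20 cells from other classes did not overlap with the endothelial ones. Glial sums of that size came only from the libraries numbered 2, which held 21 (ECiKO), 64 (GlastiKO) and 44 (control) endothelial cells. The fitted log2 differences were -9.21 ± 0.47 for astroglial over endothelial cells (adjusted p = 2.06e-23) and -11.11 ± 0.44 for oligodendrocytes over endothelial cells (adjusted p = 1.71e-28, edgeR quasi-likelihood test). Where a class has so few UMIs, the fitted size depends on the prior count and is no bound. Sox17 passed the filter on low counts only through endothelial cells and could only come out lower elsewhere, so these p-values are a description. A DESeq2 test left the astroglial contrast at adjusted p = 0.0502.

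Sox18 (ENSMUSG00000046470; chr2:181671204-181671281, minus strand), the SoxF factor known for lymphatic and blood vessel development, followed the same pattern. Its level was 484 and 288 CPM in endothelial cells labelled ECiKO, 333 and 593 CPM in those labelled GlastiKO, and 561 and 549 CPM in control. Counts elsewhere came to 1 UMI in astroglial cells, 2 in oligodendrocytes and 1 in mural cells. The fitted differences were -10.44 ± 0.51 for astroglial (adjusted p = 6.79e-25) and -10.98 ± 0.43 for oligodendrocytes over endothelial cells (adjusted p = 2.27e-29, edgeR quasi-likelihood test). As with Sox17, the filter on low counts was passed only through endothelial cells, so these p-values are a description.

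Sox7, the third SoxF gene (ENSMUSG00000063060; chr14:63943894-63943971, plus strand), had 414 endothelial UMIs. Its level was 54.8 and 0 CPM under the label ECiKO, 86.7 and 42.3 CPM under GlastiKO, and 80.3 and 25.3 CPM in control. In each group the library with fewer endothelial cells was the lower one, with 0 to 9 UMIs behind it. Astroglial cells held 7 Sox7 UMIs and oligodendrocytes 0 in 21501846, so that Sox7 was at least 233-fold lower in oligodendrocytes than in endothelial cells of the same libraries, with the floor at 3 counts over the group. Of the 12 endothelial UMIs behind that bound, 9 came from the library labelled GlastiKO replicate 2, and the 3 left without it are too few for a bound. The fitted differences were -3.93 ± 0.79 for astroglial (adjusted p = 4.75e-05) and -8.21 ± 1.00 for oligodendrocytes over endothelial cells (adjusted p = 7.35e-10, edgeR). Sox7 too passed the filter on low counts only through endothelial cells, so these p-values are a description. The astroglial call was lost without the library labelled GlastiKO replicate 2 (-3.88, adjusted p = 0.0687) and with DESeq2 (-3.79, 0.522), at a fold of about the same size.

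Mural cells, the pericytes and smooth muscle around the same vessels, separated from endothelial cells in the SoxF genes. Mural sums came from the libraries labelled GlastiKO (31 and 33 cells) and from control replicate 1 (32 cells). They held 0 UMIs of Sox17 and Sox7 and 1 of Sox18. In these sums 6, 3 and 7 of 10 endothelial markers were detected, at a summed 665, 620 and 760 CPM. In endothelial cells of the same libraries the markers summed to 18298, 21297 and 19655 CPM. Against endothelial cells of those libraries, Sox17 was at least 60.0-fold lower and Sox7 at least 12.7-fold lower. The fit called 4 of the 9 genes (31.6% of all genes tested, 16.9% lower), all lower in mural cells: Sox17, Sox7, Sox18 (-7.85 ± 0.58, adjusted p = 3.47e-17) and Sox9 (adjusted p = 0.00364). With 0 or 1 mural UMI, Sox17, Sox7 and Sox18 passed the filter on low counts only through endothelial cells and had to be lower, so the count is a description. Sox9 was also at 537 to 748 CPM in astroglial cells, so its passing of the filter did not rest on endothelial cells alone. Sox9, at 0 mural UMIs against 116 in those endothelial sums, was at least 4.26-fold lower. With 1 library left out in turn the bounds were 36.3 to 44.5 for Sox17, 7.98 to 8.89 for Sox7 and 2.49 to 3.14 for Sox9. DESeq2 called 2 of the 9, and Sox17 was not among them (adjusted p = 0.153). Sox4 was at 116, 109.8 and 55.8 CPM in the mural sums and did not pass (0.59 ± 0.34 for mural over endothelial, adjusted p = 0.197).

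The share of endothelial cells with a SoxF UMI was lower after thinning, which removes UMIs by construction. Unthinned, 64.6% of the endothelial cells of control replicate 1 had a Sox17 UMI and 66.2% a Sox18 UMI. With every cell thinned to 1000 UMIs (shallower cells left out), a Sox17 UMI remained in 29.2% of the cells of the library labelled ECiKO replicate 1, in 27.9 and 22.8% of those labelled GlastiKO and in 34.0 and 39.0% of control cells. For Sox18 the thinned shares were 31.7% in the library labelled ECiKO replicate 1, 21.5 and 31.6% in those labelled GlastiKO and 36.9 and 29.3% in control. In astroglial cells and oligodendrocytes the thinned Sox17 share was at most 1.22% and the Sox18 share 0. For Sox7 it was 4% in the library labelled ECiKO replicate 1, 7.88 and 3.51% in those labelled GlastiKO and 6.66 and 2.44% in control.

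**Figure D2:**
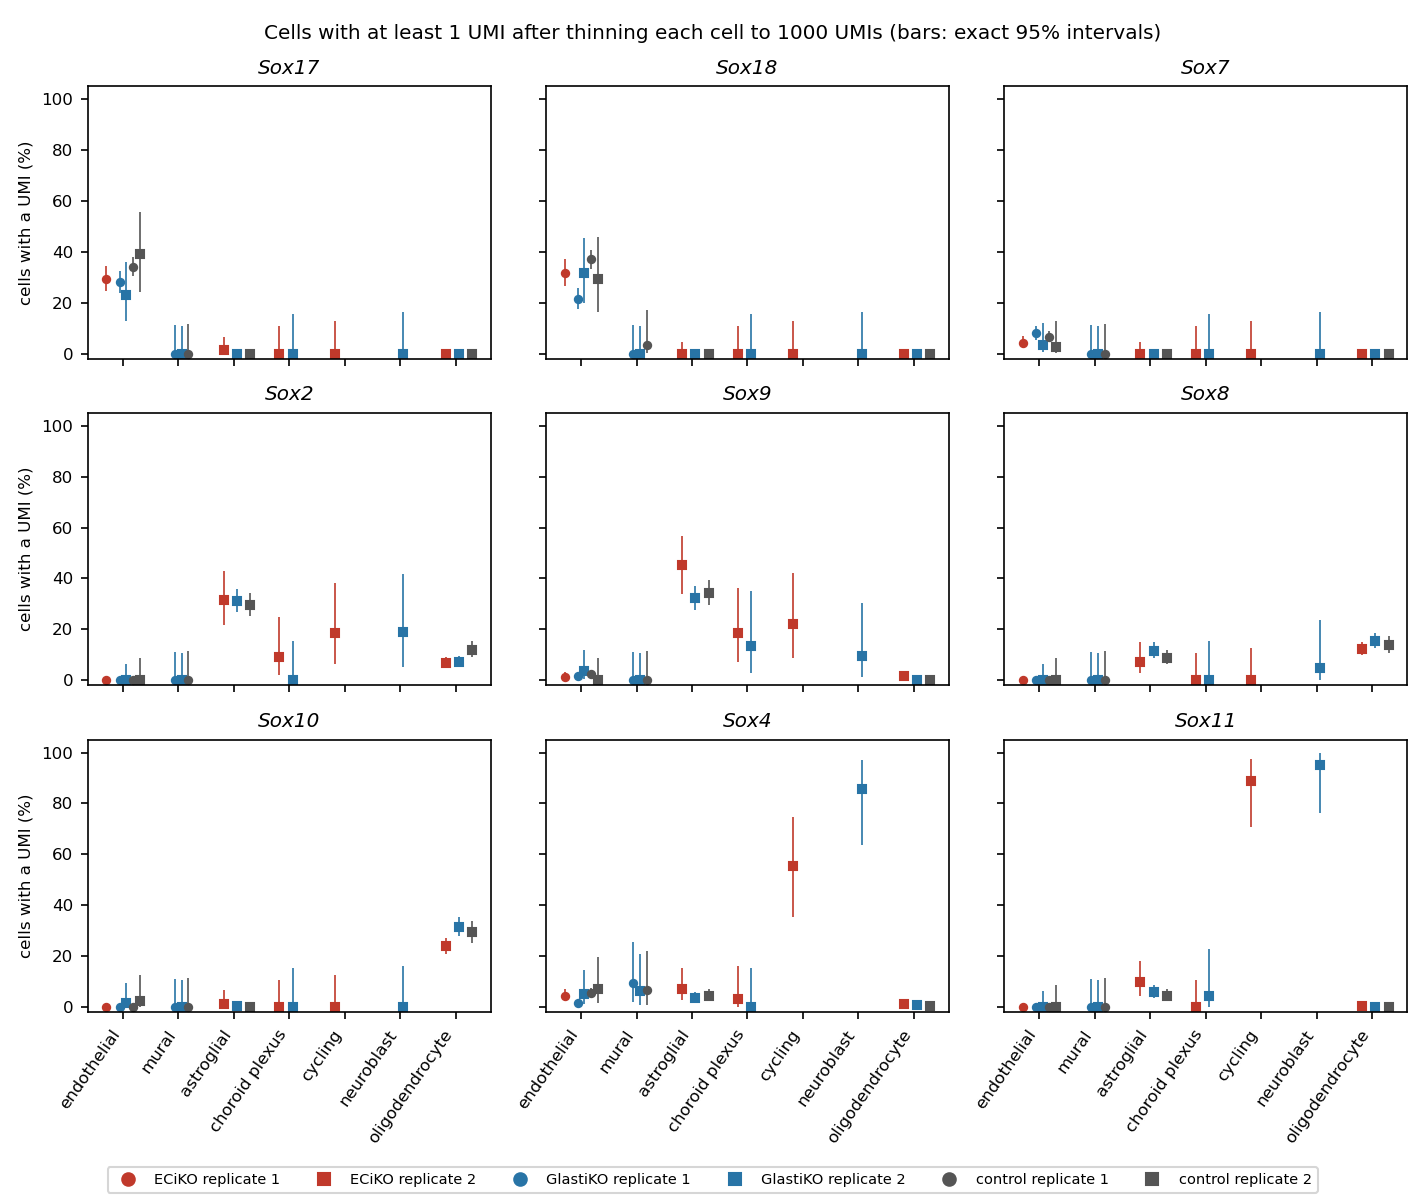
Percentage of cells with at least 1 UMI of each gene after thinning every cell to 1000 UMIs, by class and library, with exact (Clopper-Pearson) 95% intervals; sums of fewer than 20 cells are not drawn. Sox11 reaches 95.2% in neuroblasts of the library labelled GlastiKO replicate 2, and Sox17 and Sox18 are near 0 outside endothelial cells.

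Within single endothelial cells, the excess of Sox18 among Sox17-positive cells of the 3 libraries numbered 1 shrank when depth was set equal. Unthinned, 65.1% of Sox17-positive and 36.2% of Sox17-negative cells of the library labelled ECiKO replicate 1 had a Sox18 UMI. In the library labelled GlastiKO replicate 1 these shares were 59.3 and 36.5%, and in control replicate 1 they were 72.6 and 54.6%. At 1000 UMIs per cell they were 33.7 and 30.9%, 23.1 and 20.9%, and 37.8 and 36.5% in the same order of libraries. Thinning also removed SOX UMIs: Sox17-positive cells of control replicate 1 fell from 457 of 708 to 225 of 661. The part of this lost detection in the smaller gap was not tested. In the libraries numbered 2, with 12, 57 and 41 such cells, the thinned shares were 25 and 0% for the label ECiKO, 38.5 and 29.5% for GlastiKO and 37.5 and 24% for control, where larger gaps remained.

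Along the vessel tree, Sox17 was higher in arterial than in capillary cells. Subtypes were set by other markers, such as Bmx and Sema3g for arteries and Mfsd2a for capillaries, in the 3 libraries numbered 1. Arterial Sox17 stood at 440.3 CPM in the library labelled ECiKO (7 cells), 861 CPM in that labelled GlastiKO (14 cells) and 868 CPM in control (22 cells), against capillary levels of 383, 307 and 402 CPM. The arterial value was the higher one in each library, by little in that labelled ECiKO and by more in the other libraries, whose arterial values exceeded every capillary one. The fit, which used sums of at least 5 cells, a limit set after the cell numbers were seen, gave 1.11 ± 0.26 (adjusted p = 0.000421, edgeR quasi-likelihood test). Without control replicate 1 the change was 0.92 (adjusted p = 0.178), without GlastiKO replicate 1 it was 0.81 (0.182), and with no filter on low counts 0.83 (0.138), so the call rests on 2 libraries. Sox17 was the 1 member called of 4 tested, beside 8.98% of all genes.

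Sox18 did not pass between arterial and capillary cells (0.41 ± 0.26, adjusted p = 0.47). It was at 786, 438 and 574 CPM in arterial and 476, 329 and 570.3 CPM in capillary cells of the libraries labelled ECiKO and GlastiKO and of control. Venous cells (9, 9 and 19) had Sox18 at 165, 348 and 361 CPM and Sox17 at 331, 314 and 284 CPM. None of the 4 genes tested was called between venous and capillary cells (8.38% of all genes were), with Sox18 at -0.65 ± 0.32 (adjusted p = 0.239) and an unadjusted p = 0.0406, the only unadjusted p under 0.05 of the 4. Outside the 9 genes, Sox13, a SoxD gene, was also higher in arterial cells (2.02 ± 0.36, adjusted p = 1.47e-06).

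**Figure D3:**
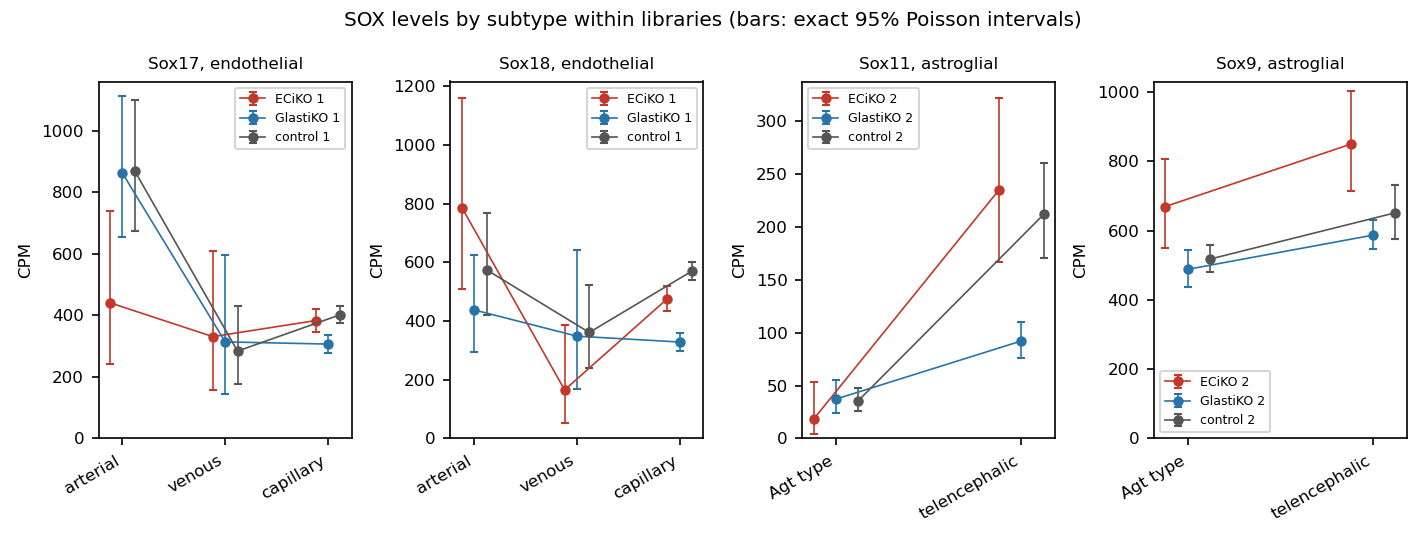
CPM of Sox17 and Sox18 in endothelial subtypes of the libraries numbered 1 and of Sox11 and Sox9 in astroglial subtypes of the libraries numbered 2; bars are exact 95% Poisson intervals (counting error only) and lines join the sums of 1 library. Arterial Sox17 lies at 440.3 CPM in the library labelled ECiKO, 861 CPM in that labelled GlastiKO and 868 CPM in control, and Sox11 is lower in Agt-type than in telencephalic cells of all 3.

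No SOX gene passed between groups in endothelial cells. Of the 9 genes, 5 had enough counts to be tested, and Sox2, Sox8, Sox10 and Sox11 did not. None of the 5 was called for the libraries labelled ECiKO over control, where 23 of 8513 genes (0.27%) were, and none for those labelled GlastiKO over control, where 30 genes (0.352%) were. By unadjusted p under 0.05, 119 and 151 genes passed and none of the 5 members, and DESeq2 called 0 members and 2 genes in each comparison. In endothelial cells labelled ECiKO over control, the log2 differences were -0.15 ± 0.30 for Sox17, -0.38 ± 0.30 for Sox18, -0.46 ± 0.38 for Sox7, -0.62 ± 0.39 for Sox4 and -0.65 ± 0.47 for Sox9. For those labelled GlastiKO over control they were -0.40 ± 0.28 for Sox17, -0.28 ± 0.29 for Sox18, 0.12 ± 0.33 for Sox7, -0.44 ± 0.36 for Sox4 and -0.52 ± 0.42 for Sox9. All adjusted p were 1.00 (edgeR quasi-likelihood test, n = 2 each), and the comparisons share the control libraries.

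The groups overlapped in Sox17 for the libraries labelled ECiKO against control, while both libraries labelled GlastiKO (333 and 325 CPM) lay below both controls (417 and 498 CPM). Sox18 in both libraries labelled ECiKO (484 and 288 CPM) lay below both controls (561 and 549 CPM), and those labelled GlastiKO fell on either side of them. Sox4 stood at 48.2 and 26.2 CPM in libraries labelled ECiKO, 45.3 and 70.6 CPM in those labelled GlastiKO and 67.6 and 92.9 CPM in control, so that both ECiKO values lay below both controls. In Sox9 all 4 libraries labelled ECiKO or GlastiKO (0 to 23.9 CPM) lay below both controls (30.2 and 50.7 CPM). The summed astroglial markers in these endothelial cells had the same order, at 23.3 to 165 CPM against 349 and 549 CPM in control. Their part in the Sox9 order was not tested. The share of all genes with such an order of libraries was not counted, and no tested member passed by unadjusted p. These orders are therefore a description. With capillary cells alone, again none of the members was called in either comparison. The library labelled ECiKO replicate 2 adds 21 endothelial cells and 38226 UMIs, so these comparisons rest mostly on the libraries numbered 1.

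**Figure D4:**
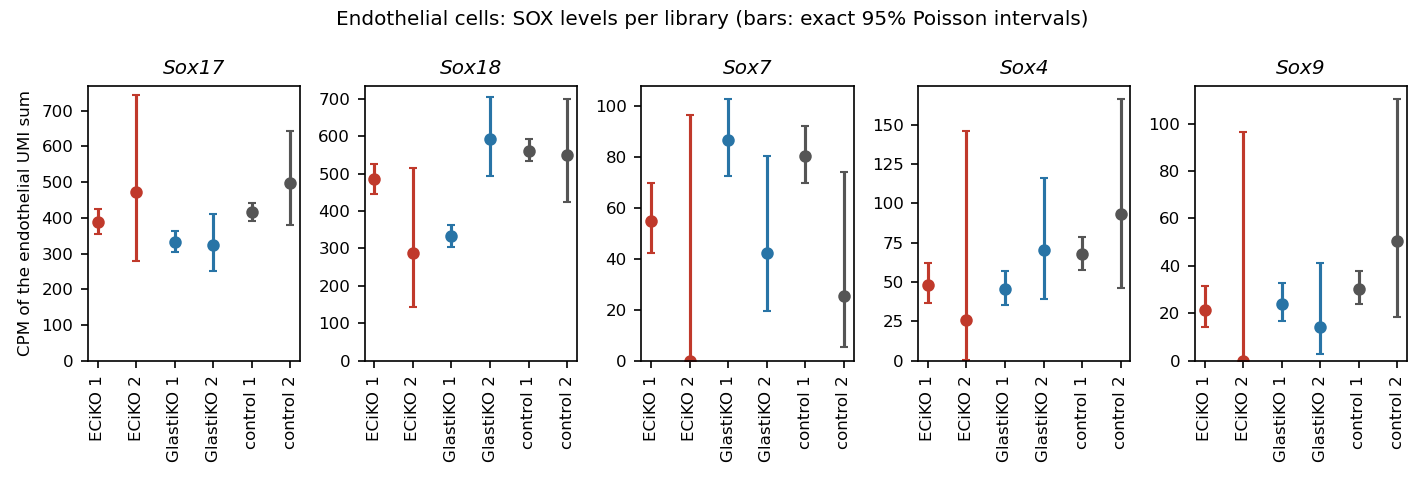
CPM of the 5 SOX genes tested in endothelial cells, 1 point per library, with exact 95% Poisson intervals (counting error only); ECiKO, GlastiKO and control from left to right. For each gene, at least 1 library of each label overlaps a control library in its interval, and ECiKO replicate 2, with 21 cells, has the widest interval for each gene.

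Sox2 (ENSMUSG00000074637; chr3:34650548-34650625, plus strand), the neural stem cell factor, had its highest levels in astroglial cells among the sums of at least 20 cells. It was at 590.4, 430.5 and 518 CPM in the astroglial cells of the libraries labelled ECiKO and GlastiKO and of control, replicate 2 each. In endothelial cells 1 Sox2 UMI was counted in 5635386, and mural cells had 0. Within the libraries numbered 2, Sox2 was at least 59.2-fold higher in astroglial than in endothelial cells (floor of 3 counts over the group). Without the library labelled GlastiKO replicate 2 the bound was 27.7 and without control replicate 2 it was 38.0. The fitted difference was 12.21 ± 0.85 (adjusted p = 5.19e-18, edgeR). Endothelial cells did not carry Sox2 through the filter on low counts and could only come out lower, so this p-value is a description.

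Sox9 (ENSMUSG00000000567; chr11:112782903-112782980, plus strand), which specifies astroglia, was at 748, 537 and 540.2 CPM in the same 3 astroglial sums. Astroglial cells exceeded endothelial cells by 4.86 ± 0.43 on the log2 scale (adjusted p = 2.71e-14, edgeR). Unlike Sox2, Sox9 had counts in endothelial cells. Its endothelial level was 21.6 and 0 CPM under the label ECiKO, 23.9 and 14.1 CPM under GlastiKO and 30.2 and 50.7 CPM in control. These sums held 148 Sox9 UMIs with 1 Sox2 UMI, while astroglial cells had 0.790, 0.802 and 0.960 Sox2 UMIs per Sox9 UMI. The summed level of 10 astroglial markers in endothelial cells was 23.3 and 52.3 CPM under the label ECiKO, 57.6 and 165 CPM under GlastiKO and 349 and 549 CPM in control, and its part in the endothelial Sox9 level was not tested.

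Sox8, the SoxE gene shared by both glial classes (ENSMUSG00000024176; chr17:25570145-25570222, minus strand), was at 111, 101 and 107 CPM in astroglial cells labelled ECiKO, labelled GlastiKO and of control. Oligodendrocytes had 138 CPM in the library labelled ECiKO, 165 CPM in that labelled GlastiKO and 153 CPM in control. The oligodendrocyte value was the higher one in each of the 3 libraries and the classes did not overlap. The fit gave 0.87 ± 0.17 for oligodendrocytes over astroglial cells (adjusted p = 1.77e-05, edgeR), and DESeq2 gave 0.47 (adjusted p = 0.540). In endothelial cells 1 Sox8 UMI was counted. An antisense neighbour, 2810468N07Rik, overlaps Sox8 on the opposite strand, as Gm37587 does Sox17. The kit keeps strand, but the counting setting is not given in the sources used here.

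Sox10 (ENSMUSG00000033006; chr15:79163324-79163401, minus strand), the activator of myelin genes, was an oligodendrocyte gene. It stood at 308, 382 and 335 CPM in oligodendrocytes of the libraries labelled ECiKO and GlastiKO and of control, and at 7.60, 6.66 and 1.06 CPM in astroglial cells. All 3 oligodendrocyte values were high, with a fitted difference of 6.64 ± 0.29 over astroglial cells (adjusted p = 2.32e-27) and of 6.14 ± 0.47 over endothelial cells (adjusted p = 7.35e-17, edgeR). DESeq2 gave 5.95 and 6.15 with adjusted p = 0.0596 and 0.0677. Sox10 passed the filter on low counts only through oligodendrocytes and could only come out higher there, so these p-values are a description. The 10 oligodendrocyte markers summed to 846, 614 and 468 CPM in the same astroglial cells, highest where Sox10 was highest, and their part in its astroglial level was not tested.

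Astroglial and endothelial cells did not differ by test in Sox10 (-0.50 ± 1.01, adjusted p = 0.740, edgeR). Without the library block the difference was 2.55 (adjusted p = 0.00999) in the other direction. Unthinned, 2 of 165, 4 of 417 and 2 of 410 astroglial cells held Sox9 and Sox10 UMIs together in the libraries labelled ECiKO and GlastiKO and in control. Among oligodendrocytes 10 of 2032, 14 of 600 and 6 of 446 cells held both. These were 10 of 32, 14 of 15 and 6 of 6 Sox9-positive oligodendrocytes (31.25, 93.3 and 100%). Among Sox9-negative oligodendrocytes of the same libraries, 27.35, 97.1 and 93.0% had a Sox10 UMI.

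The share of cells that count as Sox10-positive moved with depth. Unthinned, 27.4% of oligodendrocytes of the library labelled ECiKO replicate 2 had a Sox10 UMI, against 97.0 and 93.0% in that labelled GlastiKO and in control, at median depths of 772, 17532.5 and 15784.5 UMIs per cell. At 1000 UMIs per cell the shares were 24.0, 31.7 and 29.4%. For the library labelled ECiKO the thinned share leaves out 1352 of 2032 cells as too shallow. Sox10 shares in endothelial cells were 0 to 2.44% at the same thinning.

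Oligodendrocytes kept a level of Sox2 well below the astroglial one. It was 76.2 CPM in the library labelled ECiKO, 73.4 CPM in that labelled GlastiKO and 90.6 CPM in control, and lower than in astroglial cells in all 3 (-2.33 ± 0.18, adjusted p = 5.79e-17, edgeR). Sox9 was at 8.70, 1.60 and 1.01 CPM there (-7.33 ± 0.30 for oligodendrocytes over astroglial cells, adjusted p = 6.69e-29), so that oligodendrocytes had 8.76, 45.9 and 89.9 Sox2 UMIs per Sox9 UMI. The long RNA Sox2ot, whose gene contains Sox2 on the same strand, was at 666, 670 and 698.5 CPM in oligodendrocytes and 96.3, 113 and 120.5 CPM in astroglial cells. Reads of Sox2 and of unspliced Sox2ot RNA cannot be told apart in these counts.

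Over the 9 genes, 7 were called between astroglial and endothelial cells (40.4% of all 11645 genes tested), 4 higher and 3 lower. Between oligodendrocytes and endothelial cells 8 were called (48.1%), 3 higher and 5 lower. Between oligodendrocytes and astroglial cells 7 were called (66.2%), 2 higher and 5 lower, and DESeq2 called 4. A member that passed the filter on low counts only through the class in which it is high had to differ, so these counts are a description. The oligodendrocyte call for Sox9 against endothelial cells (-2.47 ± 0.83, adjusted p = 0.011, edgeR) was lost without control replicate 2 (-1.09, 0.435), without GlastiKO replicate 2 (-2.60, 0.0560) and with classes from clusters (-2.05, 0.0812).

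Astroglial subtypes differed in Sox11. Agt-type cells (marked by Agt and Slc6a9, among others) had Sox11 (ENSMUSG00000063632; chr12:27342181-27342258, minus strand), a factor of immature neurons, at 18.3 CPM in the library labelled ECiKO, 37.2 CPM in that labelled GlastiKO and 35.6 CPM in control. Telencephalic cells (marked by Lhx2, among others) had 235, 92.1 and 212 CPM. The subtypes did not overlap, and Sox11 was lower in Agt-type cells, with a log2 difference of -2.11 ± 0.23 (adjusted p = 1.41e-17, edgeR), the 1 member called of 5 tested (16.5% of all genes). Sox4 was also lower in the Agt-type sum of each library (66.9 against 163, 40.2 against 78.8 and 71.1 against 82.3 CPM) and just missed the threshold (-0.58 ± 0.23, adjusted p = 0.0641). It passed with a looser gate (-0.60, 0.0483) and without control replicate 2 (-0.96, 0.0232). Sox2 (-0.07 ± 0.14), Sox9 (-0.19 ± 0.13) and Sox8 (0.25 ± 0.21) were not called. Of 7 neuroblast transcription factors tested here, 5 were lower (8.63% of all genes) and none higher in Agt-type cells, with a median of -2.09 against 0.01 over all genes. Meis2 (-2.09 ± 0.19, adjusted p = 1.20e-25) was among the 5, and the part of such cells in the Sox11 difference was not tested.

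Sox4 and Sox11 reached their highest levels in neuroblasts and cycling cells. These classes were small: 12 and 22 neuroblasts and 55 and 6 cycling cells in the libraries labelled ECiKO and GlastiKO, replicate 2. Control replicate 2 held 2 neuroblasts and 4 cycling cells, under the limit of 5, so neither class has a control value here. Only cells of the neuroblast class or of no class could be called cycling, so cycling values are not independent of the neuroblast gate. In neuroblasts Sox11 was at 2946 and 4196 CPM, against 144 and 69.7 CPM in astroglial cells of the same libraries. In cycling cells it was at 3437 and 4378 CPM. Neuroblasts exceeded astroglial cells by 4.38 ± 0.54 (adjusted p = 6.92e-09) and cycling cells by 4.67 ± 0.53 (adjusted p = 6.24e-10, edgeR, sums of at least 5 cells). DESeq2 left the neuroblast contrast at adjusted p = 0.0538. At 1000 UMIs per cell, 95.2% of neuroblasts labelled GlastiKO and 88.9% of cycling cells labelled ECiKO had a Sox11 UMI.

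Sox4, its SoxC partner (ENSMUSG00000076431; chr13:28952764-28952841, minus strand), was at 6136 and 3251 CPM in neuroblasts of the libraries labelled ECiKO and GlastiKO, and at 1594 and 2284 CPM in cycling cells. Astroglial cells had 101 and 59.9 CPM there. The difference was 5.10 ± 0.39 for neuroblasts (adjusted p = 1.51e-15) and 4.18 ± 0.38 for cycling cells over astroglial cells (adjusted p = 3.39e-13, edgeR). Outside these classes the Sox4 levels of most lineages overlapped. Endothelial cells had 26.2 to 92.9 CPM, mural cells 55.8 to 116 CPM, astroglial cells 59.9 to 101 CPM and choroid plexus cells 44.4 and 24.6 CPM. Oligodendrocytes, at 9.46, 9.02 and 4.75 CPM, were below all of them (-2.94 ± 0.25 over astroglial cells, adjusted p = 5.32e-16).

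Neuroblasts kept counts of Sox2 and Sox9. Sox2 was at 286 and 371 CPM, against 590.4 and 430.5 CPM in astroglial cells of the libraries labelled ECiKO and GlastiKO (-1.02 ± 0.37, adjusted p = 0.0269, edgeR). That call was lost with a stricter gate (adjusted p = 0.0702) and with no filter on low counts (0.127). Sox9 was at 81.8 and 117 CPM in neuroblasts (-2.91 ± 0.52, adjusted p = 1.18e-05) and at 254 and 280.3 CPM in cycling cells (-1.65 ± 0.41, adjusted p = 0.000705). In both libraries the Sox9 level ran from neuroblasts through cycling to astroglial cells, low to high. This order is a description, since cells of the astroglial class could not be called cycling. In all, 5 of the 9 genes were called for neuroblasts (33.3% of all genes), 2 higher and 3 lower, and 4 for cycling cells (45.8%), 2 higher and 2 lower. Sox2 in cycling cells was at 339 CPM in the library labelled ECiKO, below its astroglial cells, and at 478 CPM in the 6 cells of that labelled GlastiKO, above them. Its fitted difference was -0.68 (adjusted p = 0.0829), and -0.92 (0.00734) with DESeq2 size factors.

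**Figure D5:**
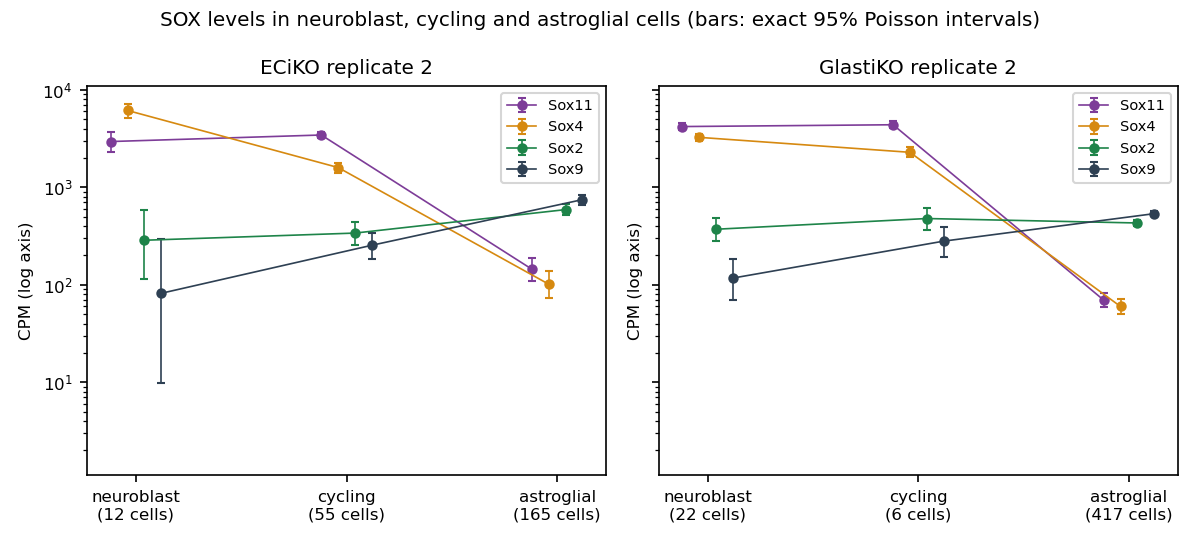
CPM (log axis) of Sox11, Sox4, Sox2 and Sox9 in neuroblast, cycling and astroglial cells of the libraries labelled ECiKO and GlastiKO, replicate 2; bars are exact 95% Poisson intervals and lines join the sums of 1 gene. Sox11 and Sox4 are at 1594 CPM or more in neuroblast and cycling cells and at most 144 CPM in astroglial cells, while Sox9 is lowest in neuroblasts.

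Choroid plexus cells, the epithelium that makes cerebrospinal fluid, had Sox9 counts and no Sox8 counts. Sox9 was at 204, 189.7 and 238 CPM in 51, 22 and 6 cells of the libraries labelled ECiKO and GlastiKO and of control. That was below astroglial cells in each library (-1.28 ± 0.33, adjusted p = 0.000693, edgeR). Sox8 had 0 UMIs in the 3 sums and was at least 27.6-fold lower than in astroglial cells (13.8 to 21.6 with 1 library left out in turn). Sox2 was at 53.3, 12.3 and 56.4 CPM (-3.66 ± 0.36, adjusted p = 6.48e-12). Of the 9 genes, 5 were called (60.3% of all genes), all lower in choroid plexus; the Sox4 call (-1.15 ± 0.47, adjusted p = 0.030) was lost under 4 alternatives, with adjusted p of 0.0538 to 0.211.

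Oligodendrocyte subtypes did not differ by test in Sox10 or Sox8. Newly formed cells (7, 16 and 10 in the libraries labelled ECiKO and GlastiKO and in control, replicate 2) differed from Il33-type cells by -0.15 ± 0.14 in Sox10 and by -0.02 ± 0.17 in Sox8. None of 4 genes tested was called (6% of all genes were), and Sox4 had the only unadjusted p under 0.05 (0.0318, edgeR). Sox4 was at 6.65, 132 and 0 CPM in newly formed and 10.4, 4.95 and 5.07 CPM in Il33-type cells. A single library, that labelled GlastiKO, was high, with 44 UMIs in 16 cells. The fitted difference was 2.20 ± 0.97 (adjusted p = 0.244). Without control replicate 2 it was 3.15 (0.0333), and with no filter on low counts 2.58 (5.7e-05).

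In glia, where each label has 1 library of at least 20 cells, levels can only be set side by side. Ratios to control are given, as a description, for every member whose exact 95% interval left out 1. This interval covers counting error only, and the share of all genes whose interval would leave out 1 was not counted. In astroglial cells the ratios were 1.38 (1.21 to 1.58) for Sox9 and 1.88 (1.36 to 2.57) for Sox11 in the library labelled ECiKO. For Sox2 in the library labelled GlastiKO the ratio was 0.830 (0.759 to 0.908). Astroglial Sox2 was at 1.14 of control (0.983 to 1.31) in the library labelled ECiKO. The 6 astroglial cells of the library labelled GlastiKO replicate 1 had Sox2 at 712 CPM (355 to 1273), on 11 UMIs, above the 518 CPM of control replicate 2. The subtype mix differed as well: 40 telencephalic and 70 Agt-type cells in the library labelled ECiKO, 204 and 145 in that labelled GlastiKO and 72 and 289 in control, and its part in these ratios was not tested. In oligodendrocytes Sox10 was at 0.918 of control (0.855 to 0.984) in the library labelled ECiKO and 1.14 (1.08 to 1.20) in that labelled GlastiKO. Both labels were below control in oligodendrocyte Sox2, at 0.842 (0.731 to 0.967) for ECiKO and 0.810 (0.728 to 0.901) for GlastiKO. Both were above it in oligodendrocyte Sox4, at 1.99 (1.21 to 3.29) for ECiKO and 1.90 (1.27 to 2.91) for GlastiKO. Of the 96 Sox4 UMIs in oligodendrocytes labelled GlastiKO, 44 came from 16 newly formed cells. In Il33-type cells Sox4 was at 10.4 CPM in the library labelled ECiKO, 4.95 CPM in that labelled GlastiKO and 5.07 CPM in control. Oligodendrocyte Sox8 was at 0.901 (0.811 to 0.9998) for ECiKO. Sox9 in oligodendrocytes labelled ECiKO, at 34 against 7 UMIs, was 8.63 times control (3.76 to 23.1). In that library the 10 astroglial markers summed to 449 CPM in oligodendrocytes, against 280.3 CPM in control, and their part was not tested. No test between groups is possible here.

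The 6 other SOX genes that passed the filter, of 11 listed, placed further members in these lineages. Of the 3 with most UMIs, Sox6 and Sox5 (SoxD) and Sox1 (SoxB1) were higher in astroglial than endothelial cells, by 9.34 ± 0.86, 7.62 ± 0.66 and 10.46 ± 1.32 (adjusted p = 5.94e-14, 5.76e-15 and 2.33e-09, edgeR). No endothelial sum held more than 3 UMIs of any of them, so endothelial cells could only come out lower and these p-values are a description. Astroglial Sox1 was 117 CPM in the library labelled ECiKO, 102 CPM in that labelled GlastiKO and 143 CPM in control. Of the 6, 5 were lower in oligodendrocytes than in astroglial cells and none higher, where 33.9% of all genes were called lower. Sox5 was at 144 and 65.9 CPM in mural cells labelled GlastiKO and at 55.8 CPM in those of control (6.81 ± 0.64 over endothelial cells, adjusted p = 1.81e-13). Sox6 was called higher there as well (4.42 ± 1.20, adjusted p = 0.00285), on 3, 1 and 1 mural UMIs in the same libraries against 1, 0 and 1 in endothelial cells.

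Other transcription factors of each lineage, from lists chosen with earlier results of these data known, gave a frame for these values. Of 16 endothelial factors, 14 were lower in astroglial and 16 in oligodendrocyte than in endothelial cells, with medians of -8.28 and -9.00 against 0.24 and 0.38 over all genes, of which 16.9 and 19.2% were called lower. They included Klf2, a flow-responsive factor (-9.35 ± 0.43 for astroglial over endothelial cells), and Epas1, a hypoxia-inducible factor (-2.86 ± 0.22). None of the 16 was called between groups. Of 10 oligodendrocyte factors tested, 8 were higher and 2 lower in oligodendrocytes than in astroglial cells (32.2 and 33.9% of all genes), among them Myrf, the myelin regulator (7.45 ± 0.30), and Olig1 (3.23 ± 0.21). Of 16 astroglial factors, 15 were lower in oligodendrocytes, with Id4 at -6.56 ± 0.24. Of 10 neuroblast factors that are no class markers, 7 were higher in neuroblasts and 8 in cycling cells than in astroglial cells (11.5 and 18.3% of all genes). Meis2 was at 2.64 ± 0.34 and 1.51 ± 0.34. Only neuroblasts and cells of no class could be called cycling.

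Across the 19 sums of at least 20 cells, the 3 genes whose log2(CPM + 10) profile was most like each SOX gene were looked up. These correlations describe sums that share libraries and classes. Sox17 was nearest Tal1, Fgd5 and Clec14a (Pearson r = 0.998 for Tal1), and Sox18 nearest Rasip1, Clic5 and Slc19a3 (0.997 for Rasip1). Sox10 was nearest Hapln2, Sec14l5 and Itgb4 (0.993 for Hapln2), Sox8 nearest Lrrc4b, Gpm6b and Fam171b (0.986 for Lrrc4b) and Sox2 nearest Srgap3, Celsr2 and Efna2 (0.984 for Srgap3). Kcnc1 and Sept3 were among the 3 nearest Sox11 (0.982 for Kcnc1), and Sox7 was nearest Tead4, Prrt4 and Krtap28-13 (0.983 for Tead4). Sox9, with Ralgps2, Id4 and Atp2b2 (0.957 for Ralgps2), and Sox4, with Jpt1, Hdac2 and Mfap2 (0.948 for Jpt1), had the lowest leading values. Between members, r was 0.992 for Sox17 and Sox18, 0.832 for Sox4 and Sox11, 0.786 for Sox2 and Sox8 and 0.710 for Sox2 and Sox9.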

How the data were processed

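The deposited values are unnormalized UMI counts, 1 for each gene in each cell barcode, which the authors made with Cell Ranger. Its version is 5.0.0 per the file headers and the labels' protocols, which name mm10, and 2.1.1, beside Seurat 4, per the submitters' processing notes.

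Cells needed 300 detected genes or more and no more than 20% mitochondrial UMIs. Scrublet (scanpy 1.11.5), run on each library, removed 54 doublets (0.854% of 6323 cells). In the library labelled ECiKO replicate 2 the caller marked 0 of 2504 cells, so doublets there were not removed. A cell joined a class other than cycling with at least 3 distinct markers of it and 2 more than of any rival. A cell of the neuroblast class or of no class with at least 3 cycling markers was called cycling, with no margin required. Dividing cells of other classes stayed in those classes. The members, markers and lists were chosen with earlier results of these data known, and the limit of 5 cells per sum and the capillary-only comparison after the cell numbers were seen.

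UMIs were summed per library and class or subtype (at least 20 cells, or 5 in contrasts with neuroblast, cycling, choroid plexus, arterial, venous or newly formed cells) and tested over all genes with edgeR 4.0.16 (R 4.3.3): filterByExpr, TMM scaling, quasi-likelihood F test, Benjamini-Hochberg adjustment at 0.05. Class and subtype fits had library as a block, with 7 residual degrees of freedom for classes and 2 for astroglial subtypes; the group fit had 3 and no block. Biological coefficients of variation were 13.1, 10.4 and 18.0%. Standard errors are the log2 fold change over the square root of F and, as for the p-values, their spread is mainly the one shared over all genes. DESeq2 1.42.0 was an alternative. CPM are not TMM-scaled, while fold changes are. Intervals are exact Poisson, binomial or Clopper-Pearson ones at 95% and cover counting error only, as do floors of 3 counts.

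Named genes are the 9 members in every comparison, Gja1, up to 3 genes per list by summed CPM in the list's own class (for other SOX genes, by UMIs), and for each member the 3 genes with the highest Pearson correlation of log2(CPM + 10) among 11384 genes. Sox13 in arterial cells was named after its value was seen. Some genes that this rule names are not reported here.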

Additional observations from a re-analysis of the deposited data

How the results depend on the processing

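Of 1126 recomputed log2 fold changes of the 9 genes, 1094 kept their direction and their side of the threshold, 23 lost and 8 gained a call, and 1 reversed: Sox10 for astroglial over endothelial cells with no library block (2.55). Of 163 counts of members called, 154 stayed within 1.5 times. With the DESeq2 test the counts were 4 for oligodendrocyte over astroglial and 2 for mural over endothelial cells. For Agt-type over telencephalic cells the count was 2 with a looser gate and 1 to 2 when 1 library was left out. For arterial over capillary cells it was 0 with no filter on low counts and 0 to 1 when 1 library was left out, and for newly formed over Il33-type cells 1 with no filter and 0 to 1. The cause was not tested. Counts over all genes moved more, from 2 to 40 for ECiKO over control and 2 to 41 for GlastiKO over control; where 1 library of a group was left out, the lone one was assumed to vary like the others. All 40 ratios between labels in glia stayed within their intervals under the other gates.

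Thinning to 500 in place of 1000 UMIs per cell lowered, by construction, the shares of positive cells in control: astroglial Sox2 18.8% and Sox9 16.8%, oligodendrocyte Sox8 7.85% and Sox10 12.8%, endothelial Sox7 3.95%, Sox17 18.2% and Sox18 20.6%.

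Over 8513 genes in endothelial cells, deviations of same-numbered libraries correlated weakly (r = 0.0569, 0.0555 and 0.0826, 2 pairs each), and the numbers were not taken to pair them. Oligodendrocyte markers there were nonetheless higher in each library numbered 2 (1308, 922 and 929 CPM under ECiKO, GlastiKO and control) than in that numbered 1 (464, 537 and 397 CPM). With the replicate number as a block, 0 members and 36 genes were called for ECiKO over control. DESeq2 size factors moved the median of all genes by -0.375 log2 for oligodendrocyte over astroglial and over endothelial cells, -0.40 for choroid plexus, -0.25 for cycling and -0.12 for neuroblast over astroglial cells and 0.12 for venous over capillary cells. Klk6-type oligodendrocytes could not be compared, since 1 library held 5 such cells. Endothelial sums of the libraries numbered 2 (38226 to 212611 UMIs) limit every contrast with glia, where endothelial levels of 0 or 1 UMI bound a fold only from below.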
